A study of Mus musculus with 4 samples.

Results

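The 6 genes Glb1, Gla, Galc, Galns, Neu1 and Hexa encode lysosomal enzymes that take apart the sugar chains of glycolipids, glycoproteins and glycosaminoglycans. They were taken by gene symbol from the 32285 genes of each deposited matrix, and each symbol matched 1 gene. Their transcripts were followed across cell classes of whole mouse lung and between mice with an edited Galt gene (GAL, 2 libraries) and wild-type mice (WT, 2 libraries). Galt encodes the enzyme that converts galactose-1-phosphate in the Leloir pathway of galactose use. Strain, age, sex and the kind of edit are not in the labels, which also do not say how many mice went into a library. The p-values of GAL against WT therefore measure the spread between libraries. Droplets with barcoded beads were used to count messenger RNA molecules (unique molecular identifiers, UMIs) per cell.

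Lysosomal enzymes remove sugars in a fixed order, from the outer end of a chain inwards, and a missing enzyme leaves its substrate in the lysosome. Macrophages of the lung take up dead cells, surfactant and particles and carry this load into lysosomes. Glb1 encodes beta-galactosidase, which takes terminal galactose from the ganglioside GM1 and from keratan sulfate. Gla encodes alpha-galactosidase A, which takes galactose from globotriaosylceramide, and Galc encodes galactosylceramidase, which takes it from galactosylceramide. Galns encodes a sulfatase that removes sulfate from galactose in keratan sulfate and from N-acetylgalactosamine in chondroitin sulfate, so it acts beside the glycosidases and is not itself a glycosidase. Neu1 encodes the sialidase that removes terminal sialic acid, and its protein works in a complex with beta-galactosidase and the protective protein cathepsin A, encoded by Ctsa. Hexa encodes the alpha subunit of beta-hexosaminidase A, which needs the activator protein of Gm2a to degrade the ganglioside GM2.

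In GRCm38 (GENCODE vM21) Glb1 is at chr9:114401076-114474898 on the plus strand, Hexa at chr9:59539540-59565109 on the plus strand, and Neu1 at chr17:34931253-34935953 on the plus strand. Gla is at chrX:134588149-134601125, Galc at chr12:98202294-98259459 and Galns at chr8:122578242-122611463, all on the minus strand. Tmppe overlaps Glb1 on the same strand and Tmem202 overlaps Hexa on the opposite strand. The class means of Tmppe were at or below 1.97 CPM (UMIs of the gene per 1000000 UMIs of the class), and its highest value in a single library was 4.62 CPM, in classical monocytes of GAL replicate 2. The sources used here do not say whether counting used strand, so reads of Galc and of the antisense gene Gm47439, or of Galns and Gm20388, could not be told apart.

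Promoters of 5 of the 6 genes were in the RefSeq table (GRCm38.p6, 250 bases before to 50 after the start site), the exception being Galns. The motif CACGTG, an E-box that transcription factors of the TFE family (Tfeb, Tfe3, Mitf, Tfec) recognise in promoters of lysosomal genes, was searched for; it reads the same on both strands and occurred in 7.15% of 32851 promoters. It was found in 2 places in the Gla promoter and in 1 place in the Glb1 promoter, and these letters were not in the windows of Galc, Neu1 and Hexa. The stretches are shown because Gla and Glb1 were the pair with the least alike levels over cell classes; capitals mark the motif, and letters run 5′ to 3′ on the gene's strand.
Gla, motif from 227 bases before the start, chrX:134601215-134601244, minus strand: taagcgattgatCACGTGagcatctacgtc
Gla, motif from 194 bases before the start, chrX:134601182-134601211, minus strand: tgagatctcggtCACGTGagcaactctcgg
Glb1, motif from 48 bases before the start, chr9:114401018-114401047, plus strand: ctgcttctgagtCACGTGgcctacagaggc
Both Gla stretches also held the longer form TCACGTGA, which spans the capitals and 1 base on each side and was found in 0.974% of all promoters. Hnrnph2 starts 54 bases beyond the GENCODE end of Gla at chrX:134601125, on the opposite strand. The motif positions count from another, RefSeq start of Gla, and both Gla stretches lie just inside Hnrnph2. A match describes the letters and shows no binding.

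The 4 libraries held 56218178 to 62406681 UMIs in 12045 to 15583 barcodes, of which 53463 cells were kept. Pairs of libraries shared 107 to 149 barcodes. A cell entered a class when it held UMIs of at least 2 of 6 marker genes of that class and at least 2 more than of any other class, and 39165 cells (73.3%) did so. Tests were run for the 15 classes that had 30 or more cells in each library. Of 30 further markers not used in the gate, 23 were highest in their own class, and for all 30 that class was among the highest 3. Over all kept cells Galt was at 13.4 and 10.8 CPM in the GAL libraries and at 11.5 and 11.5 CPM in the WT libraries. Its level there did not separate the labels (log2 difference 0.05 ± 0.18 SE). It was higher in both GAL libraries in general capillary cells (10.9 and 12.4 against 7.56 and 7.55 CPM) and aerocytes (16.6 and 16.2 against 6.24 and 10.9 CPM). Neither was called (adjusted p = 0.996 and 0.999, edgeR), and 31% of all pairs of gene and class had groups that did not overlap. All libraries held Xist at 878 to 1067 CPM and at most 5 UMIs of the Y-linked gene Ddx3y, which matters for Gla because it lies on the X chromosome. Free RNA was present: Sftpc, a surfactant gene of alveolar type 2 cells, reached 359 CPM in T cells of GAL replicate 1 and 7.42 to 73.4 CPM in those of the other libraries.

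**Figure D1:**
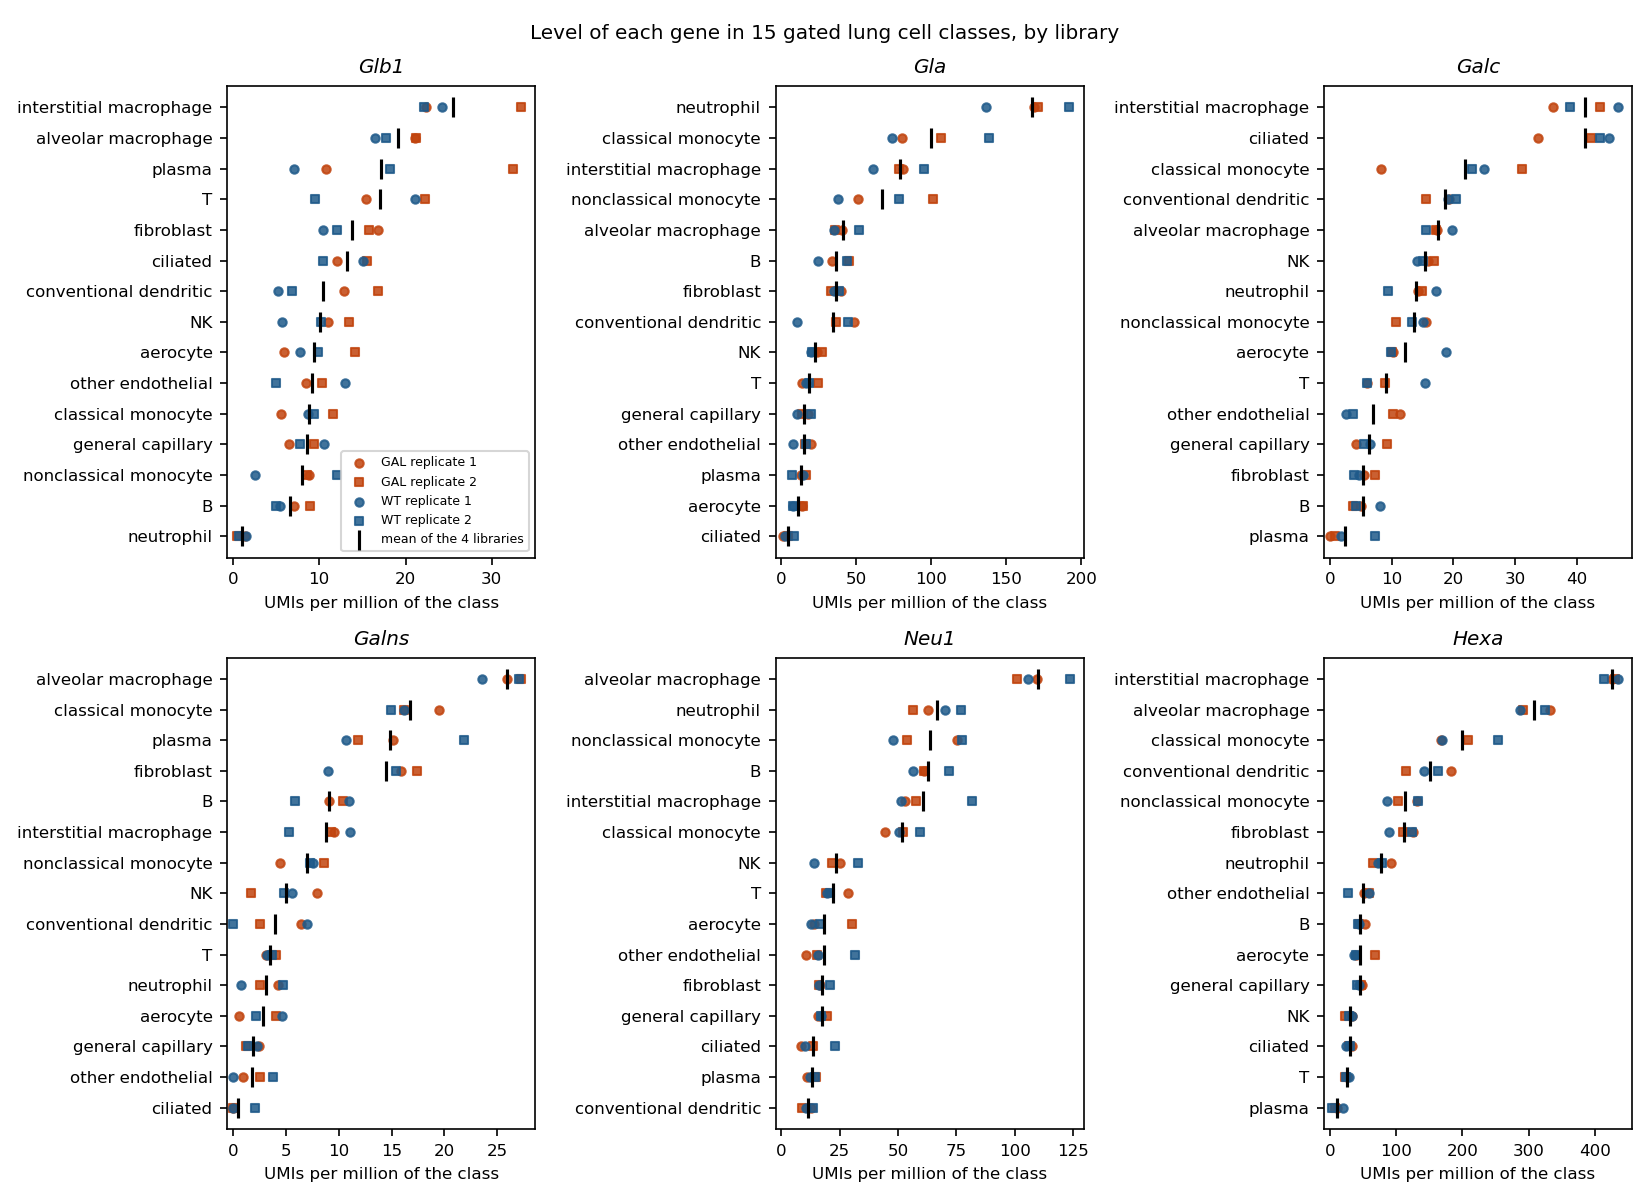
Level of each of the 6 genes (CPM, x axis) in the 15 tested classes (y axis, in the order of the mean); points are the 4 libraries and black bars their means. By mean CPM, interstitial macrophages lead for Glb1, Galc and Hexa, alveolar macrophages for Galns and Neu1, and neutrophils for Gla.

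Among the 15 tested classes, macrophages carried the highest mean CPM of 5 of the 6 genes, and neutrophils that of Gla. Interstitial macrophages, which lie in the tissue between the air spaces, were first for Glb1, Galc and Hexa. Alveolar macrophages, which lie in the air spaces and clear surfactant, were first for Galns and Neu1. Neutrophils stood at the top for Gla and at the bottom for Glb1. The lead of interstitial macrophages for Glb1 depended on the normalization. With the TMM factors of the tests below, its log2 fold was 1.95 in plasma cells and 1.55 in interstitial macrophages. Without these factors it was 0.97 and 1.44. The ratio of the highest to the lowest class mean ran from 9.57 for Neu1 to 49.8 for Galns. Each gene has 14 pairs of neighbouring classes in its order, 84 in all, of which 73 had library ranges that overlapped, so most steps in the orders are not larger than the spread between libraries.

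Hexa had the fewest neighbouring classes with overlapping ranges (9 of 14). Its level in interstitial macrophages was 426, 430, 434 and 414 CPM (in the order GAL replicate 1, GAL replicate 2, WT replicate 1, WT replicate 2). In alveolar macrophages it was 332, 292, 287 and 324 CPM, and in classical monocytes, the blood-borne precursors of tissue macrophages, 167, 208, 169 and 254 CPM. These 3 ranges did not overlap. Conventional dendritic cells, which present antigen, followed with a mean of 151 CPM ± 29.2 (SD, n = 4), which overlapped with classical monocytes. T cells were at 26.0, 22.3, 28.3 and 24.7 CPM, and plasma cells were lowest at 10.5 CPM ± 6.75 (SD, n = 4).

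Neu1 was at 109, 101, 106 and 124 CPM in alveolar macrophages, above every library of every other tested class. Neutrophils (66.6 CPM ± 8.81), nonclassical monocytes (63.7 CPM ± 14.96), B cells (62.7 CPM ± 6.46), interstitial macrophages (60.9 CPM ± 14.02) and classical monocytes (51.6 CPM ± 6.05; all SD, n = 4) formed a middle group whose neighbours overlapped. A gap followed: all libraries of these 6 classes lay above those of NK cells, whose mean was 23.5 CPM. B cells were the only lymphocytes in the middle group; T cells had 28.5, 19.1, 19.6 and 20.96 CPM. Conventional dendritic cells were lowest at 12.8, 9.04, 10.5 and 13.6 CPM, although they came just after classical monocytes for Hexa.

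Gla was at 168, 171, 137 and 192 CPM in neutrophils, against 80.7, 106, 73.6 and 138 CPM in classical monocytes. The ranges touched through WT replicate 2 of the monocytes. Interstitial macrophages (79.0 CPM ± 13.9) and nonclassical monocytes (67.2 CPM ± 28.5; SD, n = 4) came next, and alveolar macrophages were at 40.8 CPM ± 7.60. Ciliated cells of the airway were lowest, with 1, 2, 1 and 4 UMIs, or 1.21, 4.45, 2.51 and 8.32 CPM. The gene downstream on the same strand, Btk, 4579 bases away, had another order: 105 CPM in B cells and 36.0 CPM in neutrophils. Hnrnph2, beside the other end of Gla, was also highest in neutrophils (163, 152, 147 and 206 CPM), but its second-highest class was at 115 CPM. Its level in T cells was 73.95 CPM, against 18.2 CPM for Gla there.

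Glb1 was at 22.4, 33.4, 24.2 and 22.1 CPM in interstitial macrophages and at 21.1, 21.2, 16.5 and 17.7 CPM in alveolar macrophages. Plasma cells came next by mean (17.1 CPM ± 11.2, SD, n = 4) with a wide spread of 10.8, 32.4, 7.13 and 18.3 CPM. T cells, at 15.5, 22.3, 21.04 and 9.51 CPM, were the highest of the other lymphocytes, and fibroblasts followed at 13.8 CPM ± 2.996. Neutrophils held 1, 1, 2 and 1 Glb1 UMIs, or 1.43, 0.428, 1.56 and 0.674 CPM. No library of any other tested class was as low as the highest neutrophil library.

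Galc was high in cells of different origin. Interstitial macrophages had 36.1, 43.7, 46.6 and 38.9 CPM and ciliated cells 33.7, 42.3, 45.2 and 43.7 CPM, the latter from 28, 19, 18 and 21 UMIs. The ranges of these classes overlapped each other, and those of ciliated cells did not overlap with classical monocytes, next at 8.35, 31.2, 24.9 and 23.1 CPM. Alveolar type 2 cells, the surfactant-making epithelium, which were too few in GAL replicate 2 (23 cells) to be tested, had 19.9, 25.4, 15.96 and 32.9 CPM. Plasma cells were lowest with 0, 1, 1 and 2 UMIs; a count of 0 in GAL replicate 1 allows up to 6.47 CPM.

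Galns was at 25.9, 27.2, 23.5 and 27.01 CPM in alveolar macrophages, above every library of the other tested classes. Classical monocytes (19.5, 16.2, 16.2 and 14.97 CPM), plasma cells (15.1, 11.9, 10.7 and 21.9 CPM) and fibroblasts (15.9, 17.4, 8.98 and 15.4 CPM) followed with overlapping ranges. Fibroblasts make and turn over the sulfated matrix on which this enzyme acts. Ciliated cells held 0, 0, 0 and 1 UMIs, and the zero counts allow up to 3.62, 6.67 and 7.53 CPM. Galns was also at 0 UMIs in the conventional dendritic cells of WT replicate 2 and in the other endothelial cells of WT replicate 1, which allow up to 10.2 and 7.78 CPM. These intervals and limits cover counting error only.

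**Figure D2:**
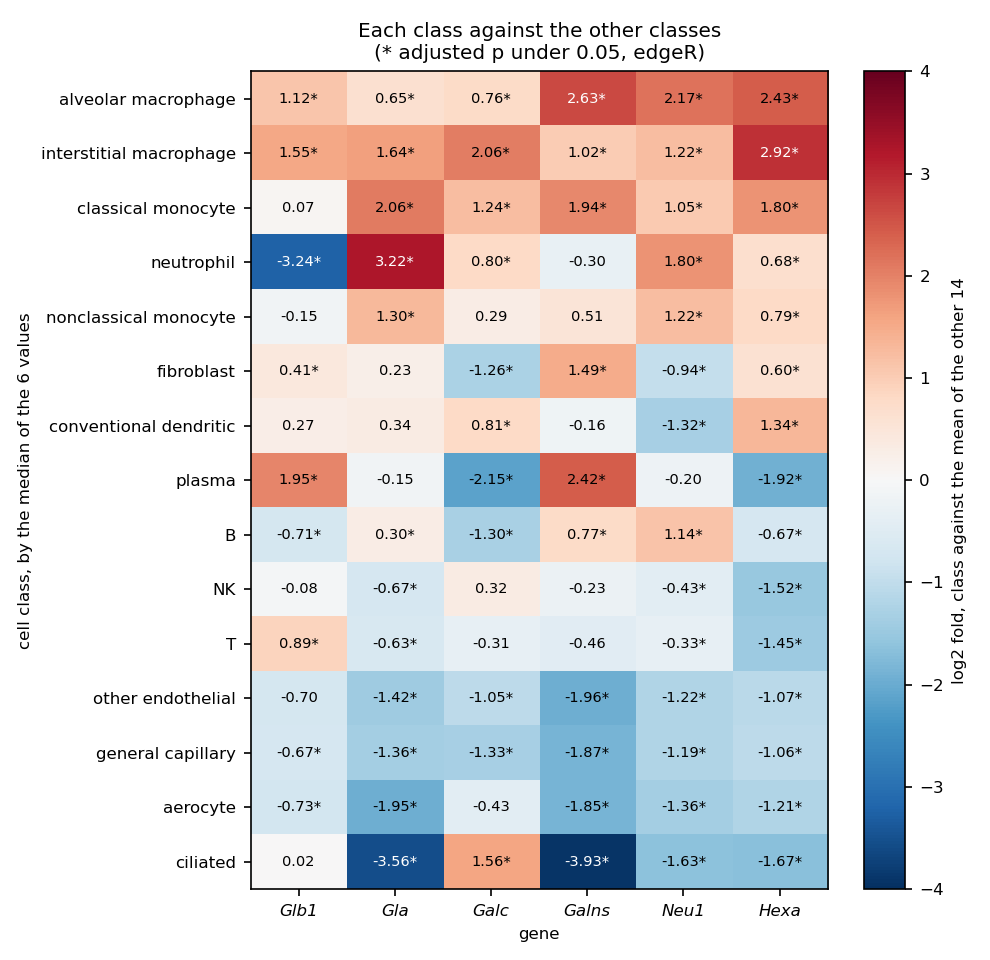
Log2 fold of each gene (columns) in each tested class (rows) against the equally weighted mean of the other 14 classes, from edgeR; an asterisk marks an adjusted p under 0.05. All 6 values are above 0 in the macrophage classes at the top, and Gla and Glb1 in neutrophils have opposite signs (3.22 and −3.24).

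Each class was compared with the equally weighted mean of the other 14 over the 4 libraries, with the library as a block (edgeR's quasi-likelihood test over 12868 genes, Benjamini-Hochberg adjusted p under 0.05). The block takes up differences that all classes of a library share. These p-values therefore measure the spread left among class sums of the same 4 libraries, pooled over classes. Small values here do not stand for many independent libraries. Of the 90 pairs of gene and class, 36 were called higher and 35 lower. Many genes differ between cell types, and the share of all genes called higher or lower is given beside each count. A contrast of this kind cannot call a gene lower when another class has no UMIs of it; this happened to none of the 6 genes here.

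All 6 genes were higher in alveolar macrophages, where 43.4% of all genes were called higher and 20.3% lower. The log2 folds were 2.63 ± 0.13 (SE) for Galns, 2.43 ± 0.08 for Hexa, 2.17 ± 0.08 for Neu1, 1.12 ± 0.13 for Glb1, 0.76 ± 0.12 for Galc and 0.65 ± 0.12 for Gla. The largest adjusted p among them was 2.62e-06, for Gla. All 6 were also higher in interstitial macrophages (28.7% of genes higher, 16.3% lower). There Hexa led with 2.92 ± 0.08, and Galns was smallest with 1.02 ± 0.21 (edgeR, adjusted p = 6.67e-05). Against the summed UMIs of the other classes, an alternative that gives abundant cells more weight and was added after the data were seen, Galns in interstitial macrophages was at −0.19 (adjusted p = 0.439). In classical monocytes 5 genes were higher (24.5% of genes higher, 15.4% lower), led by Gla at 2.06 ± 0.14; Glb1, at 0.07 ± 0.25, was not called. Against the summed UMIs of the other classes the call of Neu1 in classical monocytes was lost (0.16, adjusted p = 0.408, edgeR).

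Neutrophils had 4 genes higher and 1 lower (27.9% of genes higher, 30.3% lower). Gla was higher by 3.22 ± 0.11 (adjusted p = 6.16e-33, edgeR) and Neu1 by 1.80 ± 0.11, and Glb1 was lower at −3.24 ± 0.45 (adjusted p = 1.04e-08, edgeR). Galc and Hexa, at 0.80 and 0.68, depended on the normalization: without TMM factors they were at 0.26 (adjusted p = 0.281) and 0.15 (adjusted p = 0.287). Against the summed UMIs of the other classes Hexa in neutrophils turned to −0.20 (adjusted p = 0.279). Nonclassical monocytes, which patrol the vessel wall, had Gla, Neu1 and Hexa higher and none lower (18.5% of genes higher, 12.5% lower). Against summed UMIs Hexa turned to −0.33 there (adjusted p = 0.173) and Neu1 lost its call (0.38, adjusted p = 0.141). Conventional dendritic cells had Hexa and Galc higher (1.34 ± 0.13 and 0.81 ± 0.28) and Neu1 lower (−1.32 ± 0.26; 19.6% of genes higher, 16.6% lower). The Galc call there was lost without TMM factors (0.63, adjusted p = 0.0731) and without GAL replicate 2 (0.92) or WT replicate 2 (0.78). Against summed UMIs neither was called, with Hexa at 0.18 (adjusted p = 0.406) and Galc at 0.67 (adjusted p = 0.108).

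Lymphocytes differed from each other by gene. T cells had Glb1 higher at 0.89 ± 0.14 and Gla, Neu1 and Hexa lower (37.2% of genes higher, 22.9% lower), the Neu1 call being lost without WT replicate 2 (−0.21, adjusted p = 0.169). B cells had Neu1 (1.14 ± 0.10), Galns (0.77 ± 0.21) and Gla (0.30 ± 0.14) higher and Glb1, Galc and Hexa lower (34.7% of genes higher, 25.4% lower). The Gla call in B cells rested on an adjusted p of 0.0493 and was lost in 11 of 12 alternatives with equally weighted classes. NK cells had none higher and Gla, Neu1 and Hexa lower (25.8% of genes higher, 19.7% lower). Without TMM factors the calls of Gla (−0.47, adjusted p = 0.0609) and Neu1 (−0.24, adjusted p = 0.381) in NK cells were lost. Both were also lost without WT replicate 2, at −0.47 and −0.58, and that of Neu1 without GAL replicate 2 and without WT replicate 1, at −0.41 in each case. Plasma cells had Galns (2.42 ± 0.34) and Glb1 (1.95 ± 0.27) higher and Galc and Hexa lower (18.6% of genes higher, 16.6% lower). Without TMM factors these were smaller, Galns at 1.48 and Glb1 at 0.97, and Gla (−1.10, adjusted p = 0.000167) and Neu1 (−1.13, adjusted p = 1.04e-05) were called lower too. The Glb1 call in plasma cells was lost without GAL replicate 2 (0.99, adjusted p = 0.0961, edgeR), with the WT libraries only (1.03, adjusted p = 0.265) and without cells that carry at least 3 markers of each of 2 classes (1.12, adjusted p = 0.191), which were 126 of the 200 plasma cells. Immunoglobulin transcripts took 41.7% to 52.9% of plasma cell UMIs, which lowers the CPM of every other gene there.

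Structural cells were mostly low. The 3 endothelial classes had none of the genes higher: 6 were lower in general capillary cells (35.7% of genes higher, 25.5% lower), 5 in aerocytes, the capillary cells of gas exchange (28.3% higher, 24.5% lower), and 5 in other endothelial cells (24.5% higher, 22.2% lower). The Glb1 calls, −0.67 ± 0.18 in general capillary cells and −0.73 ± 0.28 in aerocytes, were lost without TMM factors (−0.27, adjusted p = 0.165, and −0.24, adjusted p = 0.505), as was that of Galc in other endothelial cells (−0.58, adjusted p = 0.140). The Glb1 call in aerocytes was also lost without GAL replicate 1 (−0.43, adjusted p = 0.363), as were those of Galns in aerocytes (−1.14) and other endothelial cells (−1.53). Galc in other endothelial cells lost its call without WT replicate 1 (−0.75) or WT replicate 2 (−0.77). Ciliated cells had Galc higher at 1.56 ± 0.20 and Gla, Galns, Neu1 and Hexa lower (30.6% of genes higher, 31.2% lower). Gla was at −3.56 ± 0.37 there and Galns at −3.93 ± 0.80. Fibroblasts had Galns higher at 1.49 ± 0.17, with Hexa at 0.60 ± 0.10 and Glb1 at 0.41 ± 0.15, and Galc and Neu1 lower (38.8% of genes higher, 26.7% lower). Against the summed UMIs of the other classes Hexa in fibroblasts was lower (−0.58, adjusted p = 0.00393), so its direction depends on how the other classes are weighted; Galns (0.25, adjusted p = 0.263) and Glb1 (−0.026, adjusted p = 0.900) in fibroblasts were then not called. The Glb1 call there was also lost without GAL replicate 1 (0.20, adjusted p = 0.409). Galns in B cells was also lower against the summed UMIs of the other classes (−0.45, adjusted p = 0.0339, edgeR).

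Genes that work with these enzymes were counted from lists that were chosen with earlier results of these data known. Their counts stand against 43.4% of all genes called higher and 20.3% lower in alveolar macrophages, and 28.7% and 16.3% in interstitial macrophages. Of 5 partner and activator genes, all 5 were higher in alveolar macrophages and in interstitial macrophages, with median log2 folds of 1.43 and 1.35 against 0.15 and 0.04 over all genes tested. In alveolar macrophages the smallest p-values belonged to Ctsa (2.14), Psap (1.89), the precursor of the saposins that present glycolipids to Galc and Gla, and Scarb2 (1.30), the sorting receptor of glucocerebrosidase. The 14 genes of the proton pump that acidifies lysosomes (V-ATPase) were all higher in both macrophage classes, with Atp6v1b2 at 2.31 in alveolar macrophages. Atp6v0d2, a pump gene outside these 14, was among the gate markers of alveolar macrophages, so those cells were chosen in part by a gene of the pump. Of 13 other lysosomal glycosidases, 11 were higher and 1 lower in alveolar macrophages, and 11 were higher and none lower in interstitial macrophages; Gusb, beta-glucuronidase, was at 1.87 and 1.68. Of 8 genes listed under mannose 6-phosphate sorting, 7 were higher and 1 lower in alveolar macrophages. The list holds genes that route new enzymes to lysosomes, and some, such as Sort1, act without mannose 6-phosphate. Sort1 was at 3.94 and M6pr, the cation-dependent mannose 6-phosphate receptor, at 1.82. The lower gene was the other mannose 6-phosphate receptor, Igf2r, at −3.44 (adjusted p = 1.69e-23, edgeR). In interstitial macrophages 5 were higher, with M6pr at 1.09, and 2 lower, Igf2r at −0.67 and Sort1 at −0.56. Igf2r, and Sort1 in interstitial macrophages, were named after their values were seen. Of 8 genes of the lysosomal membrane, all 8 were higher in both. Other lists were less uniform. Of 5 lysosomal sulfatases other than Galns, 3 were higher and 1 lower in alveolar macrophages, the lower one being Sgsh at −2.44. In interstitial macrophages 4 of the 5 were higher and none lower. Glb1l, Glb1l2 and Hexdc, named like the members, had no call in alveolar macrophages, at −0.024, −2.09 and 0.16. The missing call of Glb1l2 there is not read as no difference. In interstitial macrophages 1 of them, Glb1l, was higher (1.11).

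Ctsa and Gm2a were chosen for fuller description after their values were seen. Ctsa did not separate the macrophage classes: it was at 334, 313, 300 and 336 CPM in interstitial and at 335, 308, 286 and 341 CPM in alveolar macrophages. Gm2a was highest in conventional dendritic cells (962, 923, 865 and 967 CPM), where the mean of Hexa was 151 CPM.

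In neutrophils, where 27.9% of all genes were called higher and 30.3% lower, 13 of 14 V-ATPase genes were higher and 1 lower (median 1.32 against −0.16 over all genes tested), as were 5 of 8 genes of the TFE family and its regulators, with Tfe3 at 1.25, Flcn at 1.34 and Tfeb at 1.47. Of the 13 other lysosomal glycosidases, 2 were higher, Man2b1 (1.54) and Fuca1 (1.45), and 4 were lower, the latter a share close to that of all genes. In alveolar macrophages 5 of these 8 genes were higher and 1 lower (43.4% and 20.3% of all genes), with Tfec at 6.15 and Mitf at 3.63. Interstitial macrophages had 6 higher and none lower (28.7% and 16.3% of all genes), with Tfec at 3.62 and Mitf at 2.97. In ciliated cells, with 30.6% of all genes called higher and 31.2% lower, 4 of 5 partner genes were lower, among them Gm2a at −3.15, while the 3 measured genes of like-named glycosidases, Glb1l2 (5.08), Glb1l (2.47) and Hexdc (2.19), were all higher. In T cells 11 of 13 other lysosomal glycosidases, 4 of 5 partner genes and 11 of 14 V-ATPase genes were lower, against 22.9% of all genes; Glb1 was higher there.

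**Figure D3:**
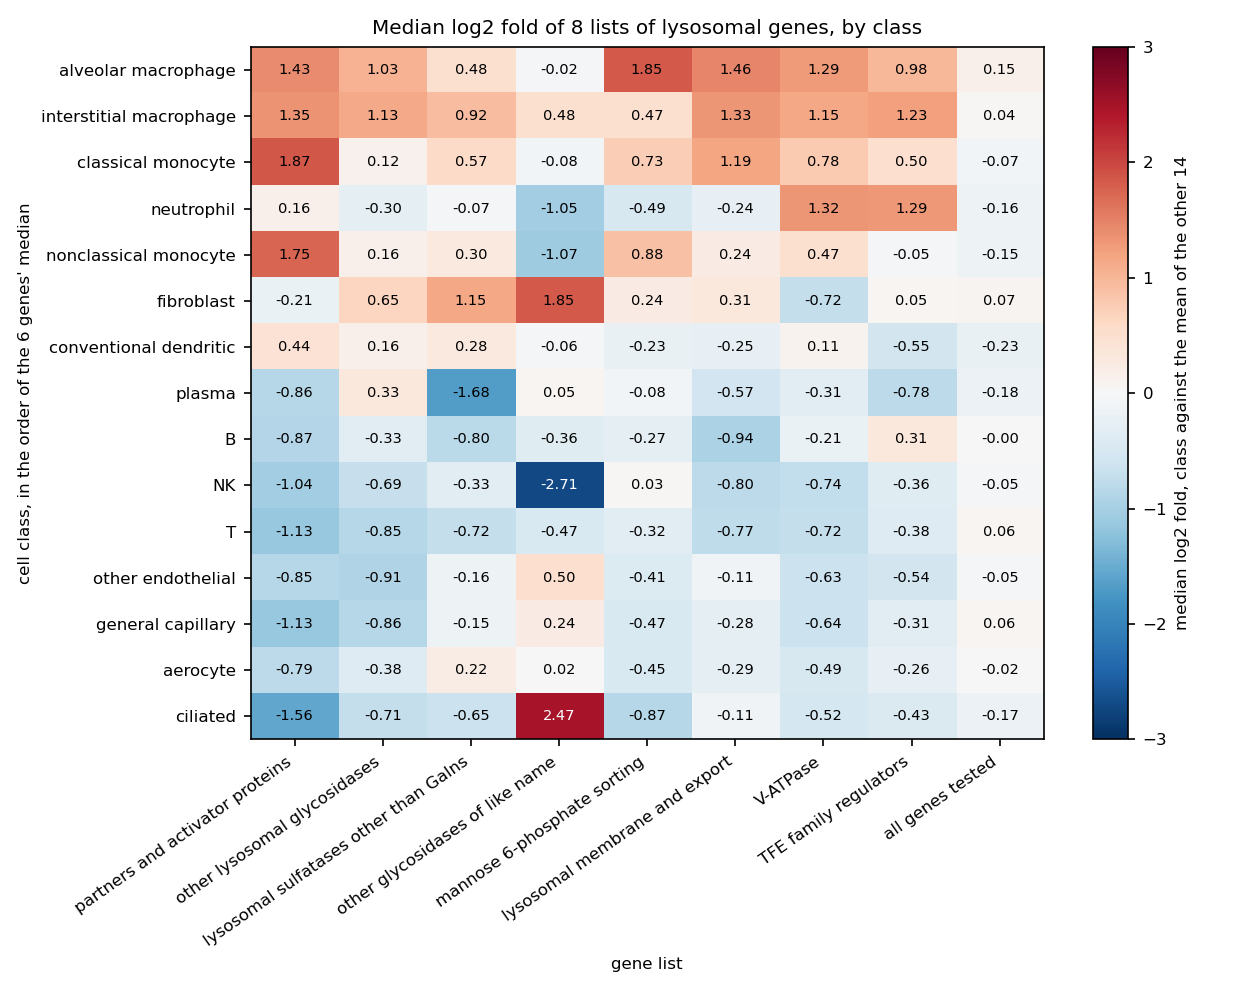
Median log2 fold (class against the equally weighted mean of the other 14 classes, edgeR) of 8 lists of lysosomal genes and of all genes tested (columns) in each class (rows). Macrophages have positive medians for 7 of the lists or more, and neutrophils for the V-ATPase (1.32) and TFE family (1.29) lists but not for other lysosomal glycosidases (−0.30).

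The patterns of the 6 genes over the 15 class means are described by Pearson's r of log2(CPM + 1), across points that share 4 libraries and differ in depth. The closest members were Gla and Neu1 (r = 0.73), Gla and Hexa (0.67) and Neu1 and Hexa (0.60). Glb1 had its lowest value with Gla (−0.40). Ctsa had r = 0.84 with Neu1 and 0.85 with Hexa, and 0.05 with Glb1, although the proteins of Ctsa, Neu1 and Glb1 form a complex. Among 6168 genes with a mean of at least 20 CPM, the most alike were Vma21 (0.91), Atp5g1 (0.89) and Prkcsh (0.88) for Glb1, and Pim1 (0.90), Rab20 (0.88) and Plekho2 (0.87) for Gla. For Galc they were Arhgap18 (0.90), Hmox2 (0.87) and Atp6v1d (0.84), and for Galns Capg (0.79), Idh3g (0.76) and Lman2 (0.76). For Neu1 they were Dok3 (0.89), Atp6v1b2 (0.89) and Cyp4f18 (0.87), and for Hexa Atp6ap2 (0.93), Psap (0.93) and Tgfbi (0.92). Atp6v1d, Atp6v1b2 and Atp6ap2 are V-ATPase genes, and Vma21 encodes an assembly factor of that pump.

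The level of Glb1 in T cells varied from 9.51 to 22.3 CPM between libraries, and it also varied between kinds of T cell. T cells were split by whether they held a UMI of a given gene; the genes were chosen after values were seen, so the splits are a description with no test. In cells with Icos, a costimulatory receptor of activated T cells, Glb1 was at 20.1, 28.1, 26.9 and 12.9 CPM, against 9.49, 9.83, 10.1 and 6.74 CPM in cells without. In cells with Ccr4, a chemokine receptor of type 2 helper and regulatory T cells, it was at 44.1, 37.2, 36.1 and 28.3 CPM, from 27, 48, 40 and 11 UMIs, against 11.9, 18.4, 17.4 and 8.36 CPM. Cells with the proliferation gene Mki67 had 40.7, 28.4, 36.2 and 17.3 CPM, against 12.7, 21.1, 15.9 and 8.78 CPM. Each of these 3 splits had the same direction in all 4 libraries. Foxp3, the transcription factor of regulatory T cells, gave no such direction: cells with it had 10.4, 44.4, 23.8 and 0 CPM, from 2, 19, 15 and 0 UMIs, against 15.6, 20.6, 20.7 and 9.72 CPM in cells without. Ccr4 itself lies 15418 bases from Glb1 on the opposite strand.

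The direction was the opposite for genes of cytotoxic and naive T cells. Glb1 was at 6.92, 12.3, 7.72 and 6.17 CPM in cells with Cd8b1, a chain of the CD8 coreceptor, against 18.1, 24.8, 23.2 and 11.03 CPM in cells without. In cells with Lef1, a transcription factor of naive T cells, it was at 12.9, 16.5, 17.3 and 6.93 CPM, against 19.7, 26.1, 22.5 and 13.8 CPM. The share of T cells with a Lef1 UMI was 58.3% and 59.3% in GAL replicate 1 and WT replicate 2 and 35.8% and 28.1% in GAL replicate 2 and WT replicate 1. The former had the lower Glb1 levels over all T cells (15.5 and 9.51 CPM) and the latter the higher (22.3 and 21.04 CPM). These shares differed within each genotype, and their part in the T cell level was not tested.

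**Figure D4:**
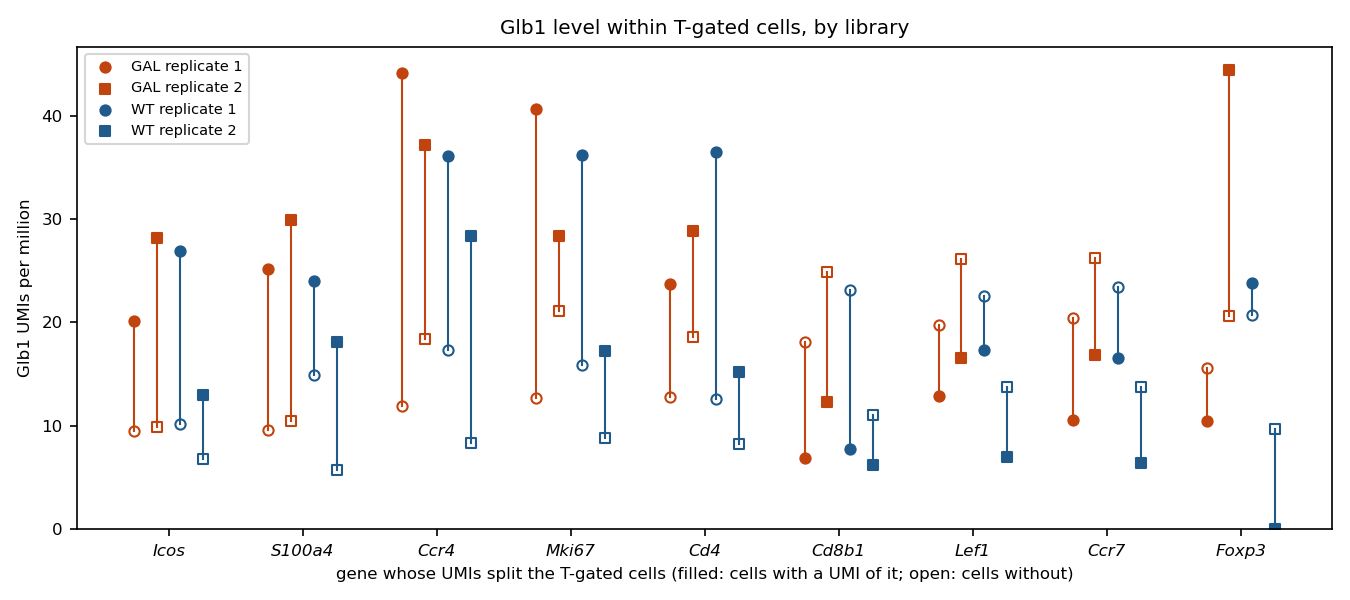
Glb1 level (CPM, y axis) in T cells with (filled) and without (open) a UMI of each gene on the x axis, by library. Filled points lie above open ones in all 4 libraries for Icos, S100a4, Ccr4, Mki67 and Cd4, and below them for Cd8b1, Lef1 and Ccr7; for Foxp3 they lie above in GAL replicate 2 and WT replicate 1 and below in the other libraries.

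Cells gated as basophils or mast cells, granule-bearing cells of allergic responses, were too few to test (14, 7, 5 and 25 cells) but held Glb1 at 220, 83.1, 230 and 102 CPM, from 8, 1, 2 and 5 UMIs. The exact 95% Poisson intervals were 95.1 to 434, 2.10 to 463, 27.9 to 832 and 33.0 to 237 CPM. The lower bounds of GAL replicate 1, WT replicate 1 and WT replicate 2 lay above the Glb1 level of T cells in the same libraries, and that of GAL replicate 2 lay below it. With a lead of 1 marker in place of 2 the levels were 219, 86.7, 140 and 107 CPM.

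The remaining classes with too few cells to test were alveolar type 2 cells (519 cells), alveolar type 1 cells (112 cells, 1 of them in GAL replicate 2) and mural cells of vessel walls (218 cells). Alveolar type 2 cells held Hexa at 39.8, 81.1, 39.9 and 37.6 CPM and Neu1 at 22.7, 10.1, 35.1 and 21.1 CPM. Their Glb1 was at 7.16, 0, 3.19 and 9.39 CPM, and a count of 0 in GAL replicate 2 allows up to 15.2 CPM. Mural cells held Hexa at 51.5, 11.5, 14.5 and 18.3 CPM and no UMI of Galns in any library, which allows up to 9.08, 17.2, 43.5 and 27.4 CPM.

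GAL was compared with WT over all kept cells and within each class. None of the 6 genes was called in whole lung, where edgeR called 0 of 17222 genes (0%), with 954 genes at an unadjusted p under 0.05 and 39 genes called by DESeq2. That count rested on the set of libraries: without GAL replicate 2 edgeR called 414 genes, none of them among the 6, and without any other single library 0. Glb1 was at 13.6 and 17.6 CPM in GAL and 13.3 and 11.5 CPM in WT, a log2 difference of 0.31 ± 0.25 SE. Neu1 was at 42.9 and 49.0 CPM in GAL and 56.2 and 63.3 CPM in WT. Its difference was −0.39 with a 95% interval of −0.82 to 0.05 (adjusted p = 0.763, edgeR). The GAL libraries lay below both WT libraries for Neu1, Galns and Hexa and above both for Glb1, and 34.4% of all genes tested had groups that did not overlap. Hexa was at 141 and 156 against 172 and 158 CPM (−0.17 ± 0.19 SE). Galns was at 11.1 and 11.9 against 12.2 and 12.2 CPM (−0.10 ± 0.18 SE). Gla and Galc overlapped between the groups (−0.08 ± 0.25 and −0.18 ± 0.33 SE).

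Whole-lung levels combine the makeup of a library with the level in each cell type, and the cells of each class were counted. Alveolar macrophages, the class with the most Neu1, gave 17.7% and 21.4% of the UMIs in GAL and 28.6% and 25.7% in WT. They were 1107 and 1050 cells in GAL and 1725 and 1641 in WT, with a median of 10344 and 11648.5 UMIs per cell in GAL and 10161 and 9438 in WT, so in these libraries their number was lower in GAL and their UMIs per cell were not. With each class held at its mean level over the libraries, the class shares alone gave a log2 ratio of −0.21 for Neu1, where the observed ratio of mean CPM was −0.38. With the shares held at their means, the levels alone gave −0.14. For Hexa the shares alone gave −0.14 and the levels −0.0056, with −0.15 observed. For Galns the shares gave −0.13 and the levels 0.15, in opposite directions, with −0.083 observed. For Galc the shares gave −0.051 and the levels −0.11, with −0.16 observed, and for Gla they gave −0.067 and −0.029, with −0.080 observed. For Glb1 the shares alone gave −0.03 and the levels 0.32, with 0.33 observed. The 2 parts are calculations on these libraries, with no test, and do not add up exactly.

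**Figure D5:**
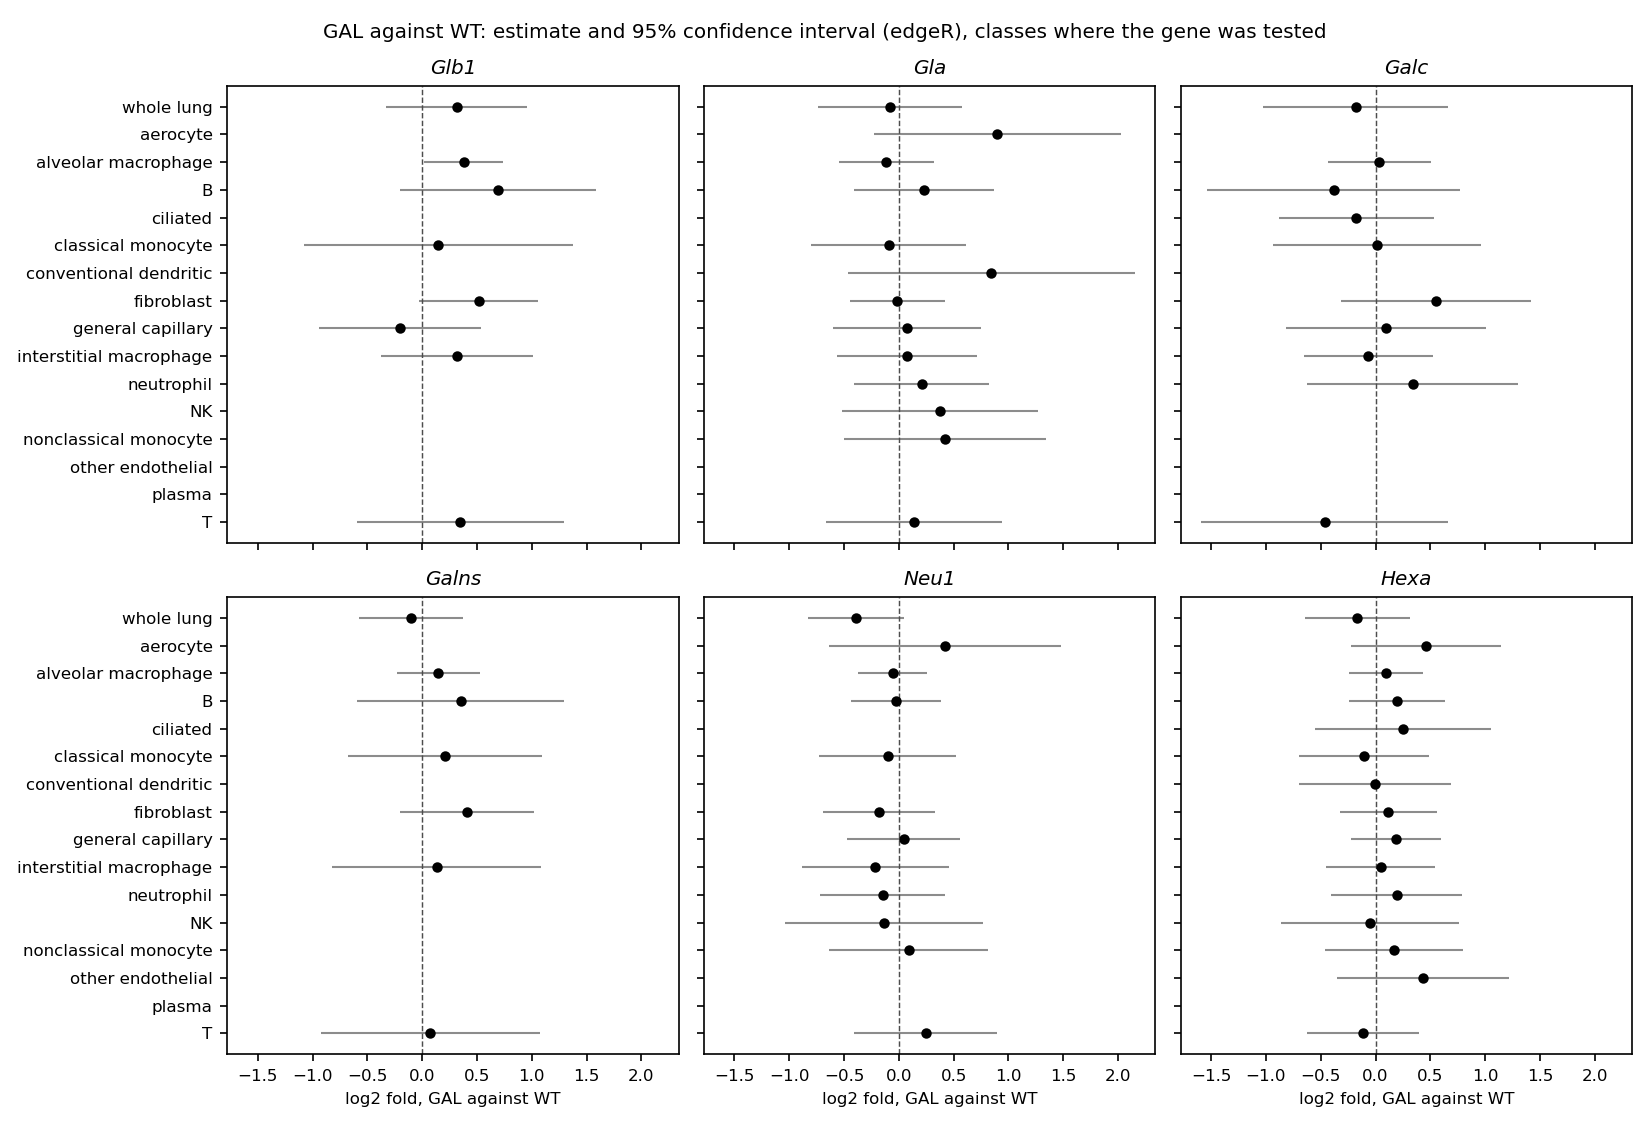
Log2 fold of GAL against WT (x axis) with its 95% confidence interval from edgeR, for each gene in whole lung and in each class where it passed the filter on low counts (y axis). Only the interval of Glb1 in alveolar macrophages (0.02 to 0.74) leaves out 0; its adjusted p is 0.991, and its unadjusted p was not under 0.05 in 9 of 12 alternatives.

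Within classes, 59 of the 90 pairs of gene and class passed the filter on low counts, and none was called (smallest adjusted p = 0.892, edgeR). Across all genes edgeR called 2 in aerocytes (0.0257%), 1 in ciliated cells (0.0157%), 6 in classical monocytes (0.0802%) and none (0%) in the other 12 classes. These counts changed with single libraries. Each of the 12 classes had calls without at least 1 of the libraries, up to 172 in nonclassical monocytes without WT replicate 1 and 168 in fibroblasts without GAL replicate 1. Aerocytes reached 111 calls without GAL replicate 1, classical monocytes 79 without WT replicate 1 and ciliated cells 68 without WT replicate 2. None of the 6 genes was among them. DESeq2 called none of the 6 genes in any comparison. It gave no adjusted p for some pairs, among them Glb1 in fibroblasts, classical monocytes and nonclassical monocytes, so it could not call these. Unadjusted, 1 of the 59 tests was under 0.05 in edgeR. It was Glb1 in alveolar macrophages, at 21.1 and 21.2 CPM in GAL and 16.5 and 17.7 CPM in WT, a log2 difference of 0.38 ± 0.15 SE (adjusted p = 0.991, edgeR). The groups did not overlap there, as was the case for 29% of all genes tested in that class. The difference was 0.25 to 0.49 in 12 alternatives, of which 3 had an unadjusted p under 0.05. Over the 59 pairs of gene and class, 11 (18.6%) had groups that did not overlap, against 31% of the pairs over all genes. Glb1 was above 0 in 6 of the 7 classes tested, with 0.69 ± 0.39 in B cells, 0.52 ± 0.25 in fibroblasts and 0.35 ± 0.39 in T cells. Interstitial macrophages were at 0.32 ± 0.29, classical monocytes at 0.15 ± 0.57 and general capillary cells at −0.20 ± 0.33. Leaving out single libraries turned the sign in T cells, classical monocytes, interstitial macrophages and general capillary cells.

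In alveolar macrophages, where counts were highest, the other genes were bounded more tightly than in the other classes. The 95% intervals of the log2 difference were −0.24 to 0.44 for Hexa, −0.37 to 0.26 for Neu1, −0.23 to 0.52 for Galns, −0.44 to 0.51 for Galc and −0.55 to 0.32 for Gla. Neu1 in this class, the one with the most Neu1, was at 109 and 101 CPM in GAL and 106 and 124 CPM in WT. Over the classes tested, Neu1 ran from −0.21 to 0.42 (median −0.06, 11 classes), Hexa from −0.11 to 0.46 (median 0.14, 14 classes), Gla from −0.12 to 0.90 (median 0.17, 12 classes), Galc from −0.46 to 0.55 (median 0.02, 9 classes) and Galns from 0.08 to 0.41 (median 0.18, 6 classes). The largest of these, Gla in aerocytes, was 0.90 ± 0.51 SE at 7.66 to 14.1 CPM (adjusted p = 0.999, edgeR).

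Whether the GAL difference itself depended on the class was tested with an interaction over all 15 classes. None of 12868 genes was called (0%; 380 at an unadjusted p under 0.05, edgeR), and the smallest unadjusted p of the 6 genes was 0.362, for Galc. With the looser gate 3 genes were called. Some genes were also called without GAL replicate 1, without GAL replicate 2 or without WT replicate 2. None of the 6 genes was among these. The lists of related lysosomal genes held no gene called between GAL and WT in whole lung or in any class. In whole lung the median over the 14 V-ATPase genes was −0.26, with 13 below 0, against 0.02 over all genes tested. In alveolar macrophages it was −0.07 against 0.01, with 11 below 0. The part of class shares in the whole-lung median of this list was not tested. V-ATPase medians were also below 0 in T cells (−0.11, 4 of 14 above 0), fibroblasts (−0.076, 5 of 14) and other endothelial cells (−0.071, 6 of 14). The remaining classes had medians above 0, from 0.00073 in classical monocytes to 0.30 in plasma cells. Above 0 were 12 of 14 V-ATPase genes in aerocytes (median 0.10), 10 of 14 in neutrophils (0.21) and 10 of 11 in plasma cells. The other lysosomal glycosidases had medians of −0.04 in whole lung and 0.05 in alveolar macrophages. In fibroblasts 13 of 13 were above 0 (median 0.11, against 0.0034 over all genes tested). In general capillary cells 11 of 13 were (0.31 against −0.0083). Medians were also above 0 in plasma cells (0.36), classical monocytes (0.20), NK cells (0.17) and other endothelial cells (0.10). Neutrophils (0.056), T cells (0.0084) and aerocytes (0.0041) had smaller medians above 0. The remaining classes had medians below 0: 5 of 13 genes were above 0 in interstitial macrophages (−0.06) and 5 of 12 in B cells (−0.03). In nonclassical monocytes 1 of 6 was (−0.11), in conventional dendritic cells 1 of 6 (−0.06) and in ciliated cells 2 of 5 (−0.23).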

How the data were processed

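The authors deposited UMI counts per gene and barcode, whole numbers, with 1 matrix for each library. Per the submitters' processing notes, fastp, STAR and Seurat were used, without versions, with the genome builds GRCm38 and mm10; the sources used here name no annotation for the counting. Cells with at least 500 UMIs, 300 genes and at most 20% mitochondrial UMIs were kept. Classes were gated by markers, with no doublet caller; the highest-UMI cells were left out as an alternative. UMIs were summed per library and class and tested with edgeR 4.0.16 (quasi-likelihood, filterByExpr, TMM); DESeq2 1.42.0 was an alternative. CPM uses all UMIs of a class, without TMM. On simulated data, a 2-fold GAL difference was recovered for 45.5% of changed genes in alveolar macrophages and 10% in whole lung. The named genes are the 6 members, up to 3 genes per list with the smallest p, and the 3 genes most alike; others are marked. The members, lists and markers were chosen with earlier results of these data known.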

Additional observations from a re-analysis of the deposited data

How the results depend on the processing

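No paired analysis was possible because the replicate numbers follow the order of deposit and the labels pair no libraries. None of the 6 genes was called between GAL and WT, in whole lung, within classes or by class, under any alternative run: no TMM, DESeq2, no filter, at most 10% mitochondrial UMIs, other gates, without the highest-UMI cells, without mixed cells (added after the data were seen) and without single libraries, each where it applied. Without single libraries, the log2 difference in whole lung ran from −0.41 to 0.18 for Gla, from −0.51 to 0.20 for Galc, from −0.23 to 0.0065 for Galns, from 0.028 to 0.54 for Glb1, from −0.33 to −0.042 for Hexa and from −0.57 to −0.24 for Neu1. In alveolar macrophages it ran from −0.34 to 0.13 for Gla, −0.17 to 0.25 for Galc, −0.013 to 0.29 for Galns −0.13 to 0.012 for Neu1 and 0.25 to 0.49 for Glb1, and Galc was also below 0 without TMM (−0.031) and with the looser gate (−0.024). For Glb1 it ran from −0.075 to 0.95 in T cells, −0.71 to 0.46 in classical monocytes, −0.43 to 0.036 in general capillary cells and −0.065 to 0.58 in interstitial macrophages. The cause was not tested.

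The class comparison called 58 to 73 of 90 pairs under its alternatives, against 71. Of the 71, 47 were called in all 12 alternatives with equally weighted classes and none reversed in them. Against the summed UMIs of the other classes 59 of 71 were called in the same direction and 6 had the opposite sign: Galns in B cells (−0.45) and interstitial macrophages (−0.19), Hexa in fibroblasts (−0.58), neutrophils (−0.20) and nonclassical monocytes (−0.33), and Glb1 in fibroblasts (−0.026). Some calls of lower Galns, and of lower Galc without mixed cells, could not be made where another class had no UMIs left. Counts of 0 to 5 UMIs limit Glb1 in neutrophils, Galns and Gla in ciliated cells and Galc in plasma cells, and 2 libraries per group limit the comparison of GAL with WT, where an exact permutation test cannot go below p = 0.333.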
